A study of Homo sapiens with 24 samples.

Results

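A set of 8 genes of the cells labelled SH-SY5Y, LBH, TSC22D3, CRABP2, FSCN1, PLPPR3, PROCR, EFNA3 and USH1C, were followed over all groups of the study. They were chosen by a large lower level in MPP+-treated oeMCART1 libraries than in MPP+-treated oeNC libraries, so that difference is a description here and carries no test. All 8 passed the filter on low values (at least 1 TPM in at least 3 libraries of a table), among 14895 genes tested in the MPP+ table and 14703 in the untreated one. The SH-SY5Y line was derived from a human neuroblastoma and often stands in for dopaminergic neurons. The study held 24 libraries of polyadenylated RNA, 3 in each of 8 groups. The groups carried a scrambled hairpin (shScramble), a hairpin against MCART1 (shMCART1), a control for overexpression (oeNC) or MCART1 overexpression (oeMCART1), each without MPP+ and with 0.5 mM MPP+ for 24 h. SLC25A51, formerly named MCART1, brings NAD+ into mitochondria, and MPP+ is a toxin that blocks respiratory complex I. The labels do not say how the hairpins or the overexpression were delivered, or whether a line is 1 clone. Values are TPM (transcript abundance scaled to transcript length and to a fixed total per library), in separate tables for untreated and treated libraries, so levels with and without MPP+ were set side by side and not tested.

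The 8 genes belong to different systems. LBH is a transcription cofactor and a target of Wnt signalling, in which beta-catenin switches on genes of growth and patterning. TSC22D3, also called GILZ, is a leucine zipper protein that glucocorticoids and other stress signals induce, and it restrains inflammatory transcription factors. CRABP2 carries retinoic acid to its nuclear receptors, and retinoic acid is a standard agent for driving neuroblastoma cells towards a neuronal form. FSCN1, or fascin, bundles actin filaments into the filopodia of migrating cells and growth cones. USH1C, or harmonin, is a scaffold that ties cadherins to actin in the bundles of inner ear hair cells and in the brush border. PLPPR3 is a membrane protein of axons related to the lipid phosphate phosphatases. PROCR is the receptor that holds protein C at the cell surface for activation by thrombin, and EFNA3 is an ephrin, a membrane-anchored ligand of Eph receptors that guides axons and cell contacts.

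The labelled cell type was checked against its markers. Of 16 markers of adrenergic neuroblastoma, TH and ELAVL4 were listed at 0 in all 12 untreated libraries, and the group means of PHOX2A and DBH were at most 0.03 TPM. TH was also at or near 0 with MPP+ (group means of at most 0.0133 TPM), while GATA2 stood at 29.7 TPM in untreated shScramble and HAND1 at 6.73 TPM. TH, ELAVL4, PHOX2A and DBH, which mark the labelled line, were thus at or near 0 wherever they had a value. HEK293T, an embryonic kidney line, is mentioned beside SH-SY5Y in the culture protocol, and the cells are called by their label only. The 16 summed to 54.7 to 68.9 TPM without MPP+. With MPP+ the 12 of them that have a value summed to 39.8 to 43.0 TPM in oeMCART1 and 46.4 to 58.2 TPM in the other groups. Of 15 mesenchymal markers 10 to 12 reached 1 TPM in a group, led by VIM, and they summed to 367 to 490 TPM without and 483 to 709 TPM with MPP+. Of 8 kidney lineage markers SIX2 stood highest (30.0 TPM in untreated shScramble) and CDH16 was listed at 0 throughout, and the 8 summed to 36.6 to 48.4 TPM without and 22.9 to 37.1 TPM with MPP+. Single markers moved in the comparison that chose the 8 genes. Treated oeMCART1 and oeNC stood at 33.2 and 8.34 TPM for ACTA2 (1.88 ± 0.12 SE on the log2 scale), 2.47 and 10.4 TPM for COL1A1 (-1.73 ± 0.14), 5.51 and 9.68 TPM for HAND1 (-0.71 ± 0.12) and 15.8 and 23.3 TPM for GATA2 (-0.53 ± 0.08). WT1 stood at 9.35 ± 6.24 and 2.40 ± 0.219 TPM (SD), with a wide spread in oeMCART1. Of the measured adrenergic markers 2 of 8 rose and 3 fell, of the mesenchymal 2 of 11 rose and 4 fell, and of the kidney markers 1 of 3 rose. These are limma calls at an adjusted p under 0.05, and 46.7% of all tested genes were called higher and 14.2% lower. Under median-of-ratios scaling the calls were 2 higher and 4 lower (adrenergic), 2 and 6 (mesenchymal) and 1 and 1 (kidney). Over all 14895 tested genes they were then 4066 higher and 4237 lower. The part of these markers in the results was not tested.

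SLC25A51 itself was read as a check of the labels. It stood at 8.49 ± 0.837 TPM (SD, n = 3) in treated oeNC and 936 ± 69.0 TPM in treated oeMCART1, and at 7.91 ± 0.899 and 5.33 ± 0.423 TPM in treated shScramble and shMCART1. Without MPP+ the 4 groups stood at 31.6 ± 3.48 (oeNC), 683 ± 12.3 (oeMCART1), 11 ± 0.382 (shScramble) and 7.28 ± 2.02 TPM (shMCART1). Untreated oeNC therefore held 2.89 times the SLC25A51 of untreated shScramble, which touches every untreated comparison with oeNC below. Correlations between replicates of a group lay between 0.970 and 0.988, and depth is unknown because TPM do not keep it. Separate cultures are not stated for the replicates, and p-values therefore measure the spread between these samples, which may be technical. In bulk RNA, fewer cells with a transcript and less of it per cell cannot be told apart.

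In MPP+-treated cells the 8 genes had their lowest level in oeMCART1, below every library of the other treated groups. LBH (ENSG00000213626; chromosome 2, 30231369 to 30323730, plus strand) read 29.7, 26.1 and 25.3 TPM in the oeNC libraries and 2.40, 2.79 and 3.13 TPM in the oeMCART1 libraries. Its level with overexpression was 10.3% of the control, and the difference on the log2(TPM + 1) scale was -2.89 ± 0.10 (SE). LBH was the 3rd lowest of 8178 named genes that reached a mean of 5 TPM in oeNC. TSC22D3 (ENSG00000157514; chromosome X, 107713221 to 107777342, minus strand) read 538, 507 and 475 TPM in oeNC and 138, 130 and 130 TPM in oeMCART1. The difference was -1.93 ± 0.05 (SE), or 26.2% of the control. The libraries of the 2 groups did not overlap for either of these transcriptional regulators.

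Promoter windows of LBH and TSC22D3 are shown because both genes also differed without MPP+ whichever library was left out (below); that of CRABP2 is shown for comparison. Windows run from 250 bases before to 50 after a start in RefSeq (GRCh38.p14), in the direction of transcription, and 7 of the 8 genes matched, with 11 windows in all. Capitals mark matches on either strand to any of 5 short motifs. The first is TATAAA, known as the TATA box. The next is GGGCGG, the GC box that SP1 binds. Another is AGGTCA, a core recognised by nuclear receptors such as those for retinoids. Glucocorticoid receptor elements contain the core AGAACA. Hypoxia response elements contain the core ACGTG. No matches of different motifs overlap in the windows shown, and 2 of the 4 GC boxes of LBH lie end to end.
LBH, chr2:30231284-30231583, plus strand: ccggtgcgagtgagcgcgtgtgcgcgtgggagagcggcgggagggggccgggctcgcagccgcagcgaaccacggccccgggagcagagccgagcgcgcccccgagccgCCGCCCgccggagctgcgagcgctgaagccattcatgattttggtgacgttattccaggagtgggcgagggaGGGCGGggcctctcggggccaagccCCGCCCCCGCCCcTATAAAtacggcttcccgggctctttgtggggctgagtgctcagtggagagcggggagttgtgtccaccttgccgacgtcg
TSC22D3, chrX:107717013-107717312, minus strand: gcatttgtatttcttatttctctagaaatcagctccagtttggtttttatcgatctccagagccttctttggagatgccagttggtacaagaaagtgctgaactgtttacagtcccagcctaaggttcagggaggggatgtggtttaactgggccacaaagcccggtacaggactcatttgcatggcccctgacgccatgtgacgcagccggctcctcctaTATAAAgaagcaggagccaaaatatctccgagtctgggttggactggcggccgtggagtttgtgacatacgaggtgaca
CRABP2, chr1:156705735-156706034, minus strand: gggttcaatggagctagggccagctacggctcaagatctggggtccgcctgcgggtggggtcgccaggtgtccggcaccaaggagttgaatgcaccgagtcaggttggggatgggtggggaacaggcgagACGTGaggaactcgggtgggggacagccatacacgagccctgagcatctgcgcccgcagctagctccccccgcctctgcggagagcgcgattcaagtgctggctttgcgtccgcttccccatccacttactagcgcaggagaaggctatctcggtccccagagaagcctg

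The TATA box of LBH begins at -31 from the start and that of TSC22D3 at -29, in the only window of its 4 that holds one. PROCR has a match at -82, and 11.5% of all 35116 windows hold TATAAA. The GC box was in 8 of the 11 windows, against 45% of all windows. AGGTCA was in 1 of the 11, a USH1C window, against 13.8% of all, ACGTG in 1 (CRABP2) against 21.4%, and AGAACA in none against 14.8%. The LBH window was 71.3% GC, the CRABP2 window 64% and the TSC22D3 window shown 49.7%, with a median of 58.7% over all windows. The TSC22D3 windows not shown were 68%, 65.7% and 69.3% GC, each with a GC box and without a TATA box. A match describes letters in a window and shows no binding, and a missing match says only that the letters are not there.

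CRABP2 (ENSG00000143320; chromosome 1, 156699606 to 156705816, minus strand) read 167, 164 and 154 TPM in treated oeNC and 56.8, 52.2 and 59.1 TPM in treated oeMCART1, a difference of -1.52 ± 0.05 (SE). FSCN1 (ENSG00000075618; chromosome 7, 5592823 to 5606655, plus strand) read 26.3, 24.1 and 27.1 against 8.39, 7.71 and 8.28 TPM, a difference of -1.56 ± 0.07. USH1C (ENSG00000006611; chromosome 11, 17493895 to 17544416, minus strand) read 7.42, 5.67 and 8.16 against 1.60, 1.65 and 2.50 TPM (-1.47 ± 0.16), the widest SE of the 8. The retinoid carrier and the actin bundler thus kept about a similar part of their control level, 34.6% and 31.4%, and the scaffold 27.1%.

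The membrane and surface proteins followed. PLPPR3 (ENSG00000129951; chromosome 19, 812488 to 821977, minus strand) read 6.76, 6.43 and 7.34 TPM in treated oeNC and 1.51, 1.62 and 1.44 TPM in treated oeMCART1 (-1.64 ± 0.09), or 22.3% of the control. With a pseudocount of 0.1 in place of 1 its difference was -2.10, beside -1.93 for TSC22D3 and -3.24 for LBH. PROCR (ENSG00000101000; chromosome 20, 35172073 to 35216240, plus strand) read 51.3, 45.2 and 43.8 against 17.5, 16.3 and 15.8 TPM (-1.44 ± 0.09). EFNA3 (ENSG00000143590; chromosome 1, 155078872 to 155087538, plus strand) read 9.79, 10.5 and 11.8 against 3.21, 3.0 and 3.47 TPM (-1.47 ± 0.10). Locations are those of GENCODE 29 on GRCh38. Of annotated genes that overlap the 8, only MMP24OS, opposite PROCR and without shared exon bases, had a mean over 1 TPM (35.7 TPM in the treated libraries).

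The median difference of the 8 was -1.54, beside 0.26 for all tested genes, and the oeMCART1 libraries lay below the oeNC libraries for all 8, as their choice required, and 15.6% of all tested genes lay lower in this way. In this comparison 14.2% of tested genes were called lower and 46.7% higher (limma, adjusted p under 0.05), and nothing is read from the members' count. These calls numbered 2118 lower and 6949 higher, against 4237 and 4066 after median-of-ratios scaling. That scaling put the all-gene median at 0.00 in place of 0.26. The differences of the 8 were then wider, from -1.72 (USH1C) to -3.17 (LBH). Of the 8178 genes above, 28 differed at least as far downward as PROCR, the least changed of the 8, and 8 of these 28 are the listed genes. Just outside lay PIM1 (-1.43), CDA (-1.43) and CCN1 (-1.42).

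**Figure D1:**
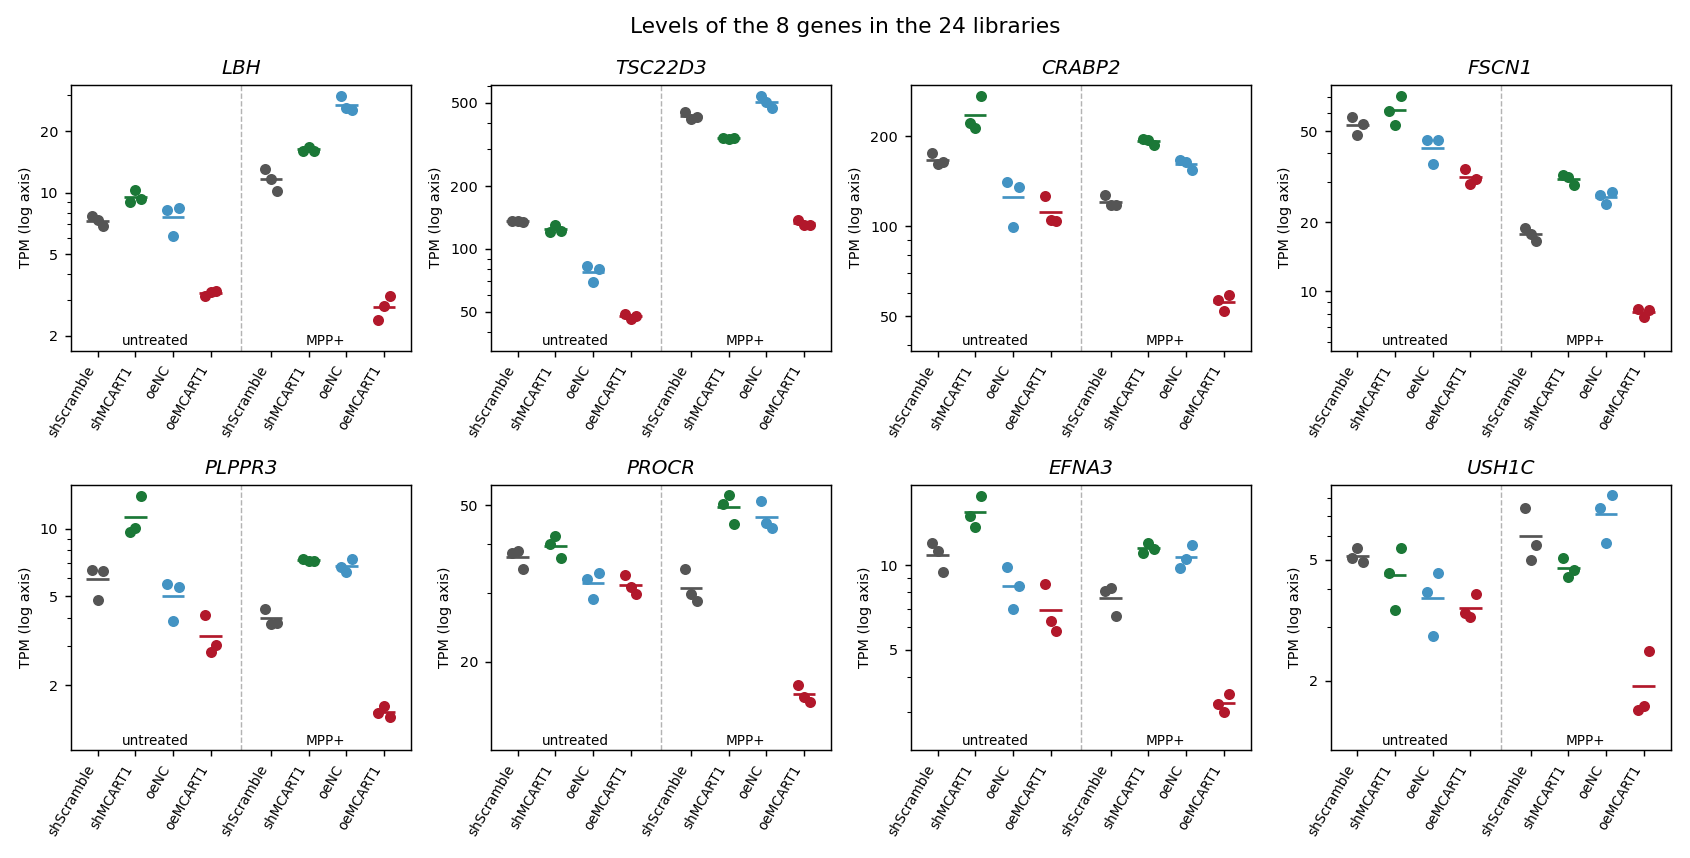
TPM of each gene (log axis) in each library, untreated groups left and MPP+ groups right of the dashed line; points are libraries and short lines group means, n = 3. With MPP+ the oeMCART1 libraries (red) lie lowest in all 8 panels, LBH at 2.40 to 3.13 TPM, while the oeNC libraries (blue) lie above the shScramble libraries (grey) except for USH1C, where they overlap.

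The 2 controls were then set against each other. This comparison shares the oeNC libraries with the choice of the genes and is given without a test for the 8. In treated cells oeNC lay above shScramble with no overlap for 7 of the 8 genes, and overlapped for USH1C. Of all tested genes 7.32% lay higher in oeNC in this way, and 25.5% after median-of-ratios scaling, where the members' count was also 7. Over all genes limma called 764 higher and 6370 lower in oeNC (adjusted p under 0.05), or 3125 and 2653 under that scaling. These 2 controls thus differed widely, with SLC25A51 at 8.49 TPM in treated oeNC and 7.91 TPM in treated shScramble. LBH read 13.1, 11.7 and 10.3 TPM in shScramble, so that oeNC held 2.31 times its level. For PLPPR3 (4.38, 3.74 and 3.81 TPM in shScramble) the ratio of oeNC to shScramble was 1.72, for PROCR 1.51, for FSCN1 1.46, for EFNA3 1.40, for CRABP2 1.34, for USH1C 1.18 and for TSC22D3 1.17. The log2 differences ran from 0.21 (USH1C) to 1.14 (LBH) with a median of 0.48, beside -0.25 for all genes.

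Against the scrambled control instead, treated oeMCART1 again lay lower for all 8 genes without overlap, as did 20.6% of all tested genes. TSC22D3 read 451, 418 and 426 TPM in shScramble, and oeMCART1 held 30.7% of that. LBH was at 23.7%, USH1C at 31.9%, PLPPR3 at 38.3%, EFNA3 at 42.2%, FSCN1 at 45.8%, CRABP2 at 46.3% and PROCR at 53.5% of shScramble. The log2 differences lay between -0.86 (PROCR) and -1.75 (LBH), with a median of -1.07 beside 0.02 for all genes. This comparison shares the oeMCART1 libraries with the choice. For LBH the choice of control moved the ratio from 9.73 times lower (oeNC) to 4.22 times lower (shScramble), and for TSC22D3 only from 3.82 to 3.26 times.

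Knockdown under MPP+ used libraries that played no part in the choice. Here 6 of the 8 genes were higher in shMCART1 than in shScramble, 1 was lower, and USH1C did not pass the test (limma, adjusted p under 0.05). Among all tested genes 10.8% were called higher and 22.2% lower (1616 and 3308 genes, or 2554 and 2281 under median-of-ratios scaling). FSCN1 rose from 18.9, 17.8 and 16.5 TPM to 32.1, 31.6 and 29 TPM (0.77 ± 0.07 SE, adjusted p = 6.05e-05). PLPPR3 rose to 7.31, 7.16 and 7.20 TPM, 1.82 times the control (0.73 ± 0.09, adjusted p = 0.000202). All shMCART1 libraries of both genes lay above all shScramble libraries, as they did for 17.9% of all tested genes.

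CRABP2 rose from 127, 118 and 118 TPM to 195, 195 and 187 TPM (0.67 ± 0.05 SE, adjusted p = 2.92e-05). PROCR rose from 34.4, 29.7 and 28.6 TPM to 50.4, 53.1 and 44.8 TPM (0.66 ± 0.09, adjusted p = 0.000362). EFNA3 rose from 8.08, 8.29 and 6.58 TPM to 11.1, 11.9 and 11.5 TPM (0.54 ± 0.10, adjusted p = 0.00188). LBH rose to 16.1, 16.8 and 16.1 TPM (0.45 ± 0.10, adjusted p = 0.00557). For these 6 genes the hairpin against MCART1 and its overexpression went with differences of opposite sign from their own controls, without overlap of the libraries. Their lower level in oeMCART1 was fixed by the choice of the genes. Treated oeNC also lay above shScramble without overlap for the same 6 genes, with SLC25A51 at 8.49 and 7.91 TPM.

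TSC22D3 differed from that pattern. It fell in treated shMCART1, to 339, 337 and 340 TPM (-0.35 ± 0.05 SE, adjusted p = 0.000415), so it was lower than its control both with knockdown and with overexpression. USH1C read 7.43, 4.98 and 5.60 TPM in shScramble and 5.09, 4.39 and 4.62 TPM in shMCART1, and these groups overlapped (-0.28 ± 0.16, adjusted p = 0.202). All 7 calls held in every alternative fit that was run, including each with 1 library left out and with GC trends removed. Over these fits the change of FSCN1 lay between 0.63 and 0.87 and that of TSC22D3 between -0.37 and -0.24.

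The order of the treated groups therefore differed between genes. For LBH and TSC22D3 the highest group was oeNC (LBH 27.0, TSC22D3 507 TPM on average), and for LBH it was followed by shMCART1 and shScramble, for TSC22D3 by shScramble and shMCART1, with no neighbours overlapping. For CRABP2 and FSCN1 shMCART1 was highest (192 and 30.9 TPM), then oeNC, then shScramble, again without overlap. For PLPPR3, PROCR and EFNA3 shMCART1 and oeNC overlapped at the top (PROCR 44.8 to 53.1 and 43.8 to 51.3 TPM) and lay above shScramble. For USH1C oeNC overlapped shScramble, and shScramble overlapped shMCART1. The oeMCART1 group was last for each of the 8.

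**Figure D2:**
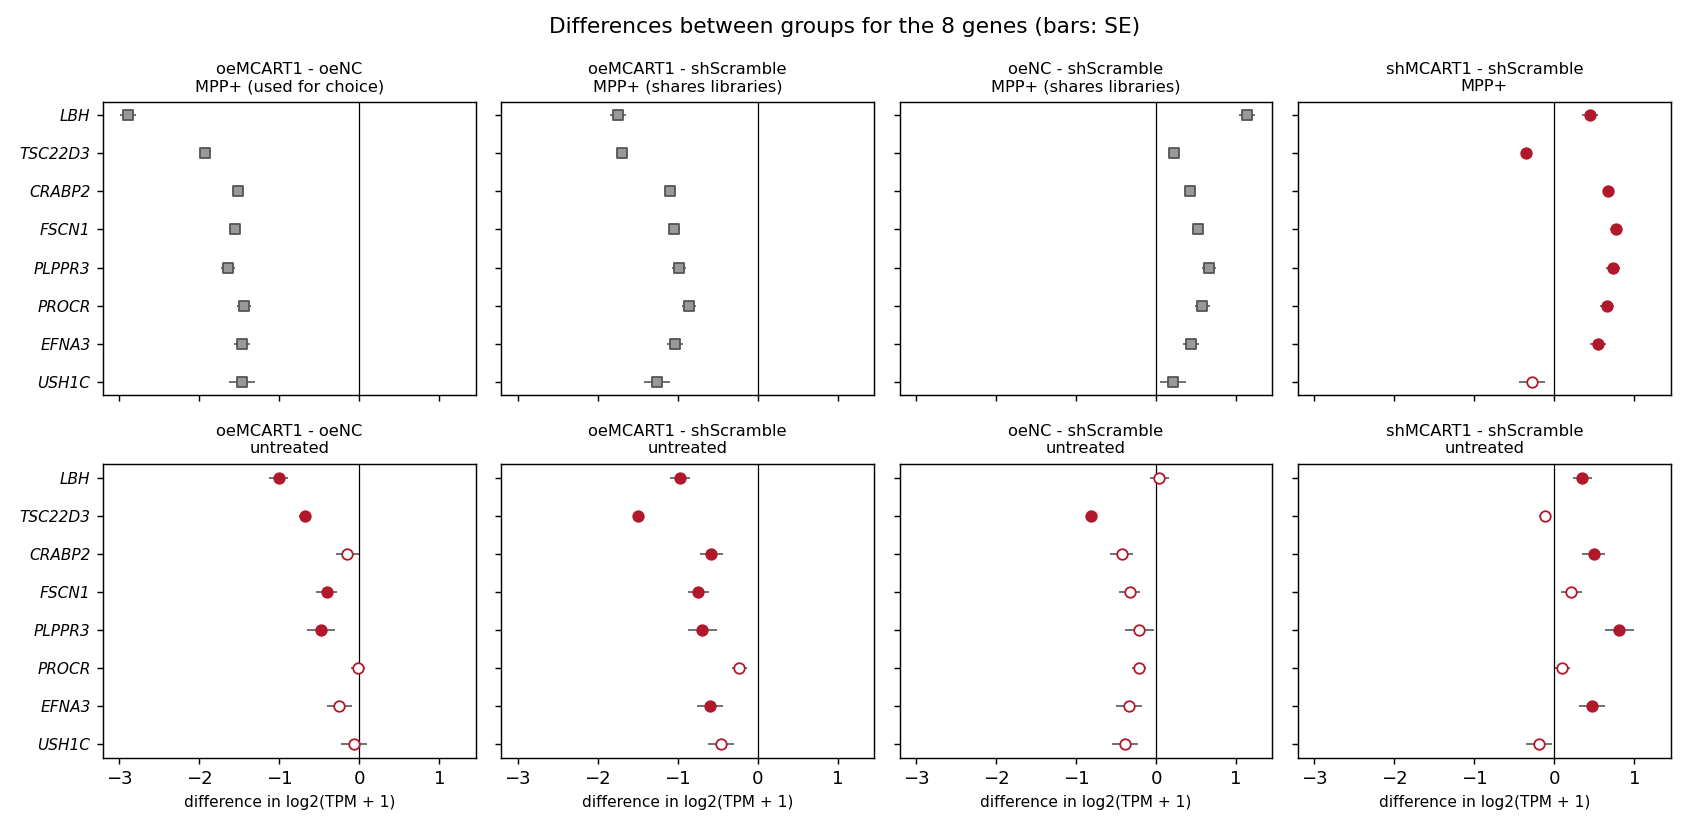
Difference in log2(TPM + 1) between groups (x axis) for each gene; bars are SE, grey squares are comparisons that chose the genes or share libraries with that choice (no test), filled circles are called by limma and open circles are not. With MPP+ (top row) 6 genes lie right of 0 in shMCART1 and all 8 lie left of 0 in oeMCART1 against either control. Without MPP+ (bottom row) the oeMCART1 differences of each gene lie nearer to 0, with LBH at -1.01 against oeNC. The treated oeMCART1 differences chose the genes or share libraries with that choice, so nothing is read from this contrast of rows. Whether overexpression differences changed with MPP+ was not tested.

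Overexpression without MPP+ was read from libraries that had not chosen the genes. Of the 8, 4 were lower in oeMCART1 than in oeNC, LBH, TSC22D3, FSCN1 and PLPPR3, where 14.7% of all genes were called lower and 33.5% higher (2155 and 4927 genes, or 3687 and 3952 under median-of-ratios scaling). LBH read 8.27, 6.12 and 8.40 TPM in oeNC and 3.12, 3.26 and 3.31 TPM in oeMCART1 (-1.01 ± 0.12 SE, adjusted p = 0.0041). TSC22D3 read 82.5, 69.3 and 80.4 against 48.8, 46.2 and 48.0 TPM (-0.68 ± 0.07, adjusted p = 0.00326). Both calls held with each library left out in turn and with GC trends removed (-0.99 and -0.68).

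The other calls were weaker. FSCN1 read 45.5, 36.0 and 45.5 TPM in oeNC and 34.2, 29.3 and 30.8 TPM in oeMCART1 (-0.41 ± 0.13 SE, adjusted p = 0.0194). PLPPR3 read 5.67, 3.89 and 5.51 against 4.10, 2.81 and 3.02 TPM, with overlap (-0.48 ± 0.18, adjusted p = 0.0477). Both calls ended without oeMCART1 replicate 2 or 3 or oeNC replicate 1 or 3 (2 of the 8 genes called in each case), and with GC trends removed (FSCN1 -0.07, PLPPR3 -0.11). PROCR stood at 31.7 ± 2.45 and 31.3 ± 1.77 TPM (SD), at a difference of -0.02 ± 0.09 (SE, adjusted p = 0.887). CRABP2 (-0.15, adjusted p = 0.382), EFNA3 (-0.25, 0.207) and USH1C (-0.07, 0.756) also did not pass.

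Against untreated shScramble, 6 of the 8 were lower in oeMCART1, with 6.12% of all genes called lower (900 genes beside 338 higher, or 324 and 628 under median-of-ratios scaling). TSC22D3 went from 136, 136 and 135 TPM to the values above (-1.49 ± 0.07 SE, adjusted p = 1.69e-06) and LBH from 7.66, 7.34 and 6.91 TPM (-0.97 ± 0.12, adjusted p = 0.00501). FSCN1 (-0.74), PLPPR3 (-0.69), EFNA3 (-0.60) and CRABP2 (-0.58) also passed, while PROCR (-0.23) and USH1C (-0.46) did not. This comparison shares the oeMCART1 libraries with the one before. The calls of CRABP2, PLPPR3 and EFNA3 ended under median-of-ratios scaling and with GC trends removed. LBH and TSC22D3 stayed called with any library left out. The other 4 calls ended without shScramble replicate 1 or 3 or oeMCART1 replicate 2 or 3 (2 genes called in each), 3 of them ended without oeMCART1 replicate 1, and EFNA3 ended without shScramble replicate 2.

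Between the untreated controls only TSC22D3 passed, with 1.09% of all genes called lower. It stood at 77.4 ± 7.11 TPM in oeNC and 136 ± 0.573 TPM (SD) in shScramble (-0.81 ± 0.07 SE, adjusted p = 0.00152). With MPP+ the sign of that control difference was the opposite (0.23), and whether the 2 differ was not tested. LBH stood at 7.60 and 7.30 TPM in the untreated controls (0.04 ± 0.12, adjusted p = 0.848), beside 27.0 and 11.7 TPM in the treated ones. CRABP2, FSCN1, PROCR and USH1C also lay lower in untreated oeNC without overlap but did not pass the test (limma adjusted p = 0.084, 0.117, 0.135 and 0.138). With TSC22D3 these are 5 of the 8, beside 31.3% of all genes, and after median-of-ratios scaling 1 of the 8 and 15.4%. Over all genes the calls were 160 lower and 29 higher, or 95 and 99 with that scaling, and the all-gene median was -0.17.

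In untreated knockdown cells 4 of the 8 genes were higher than in shScramble, PLPPR3, CRABP2, EFNA3 and LBH, where 8.64% of all genes were called higher (1271 genes beside 3764 lower, or 2903 and 2999 under median-of-ratios scaling). PLPPR3 read 6.56, 4.83 and 6.48 TPM in shScramble and 9.68, 10.1 and 14.0 TPM in shMCART1 (0.81 ± 0.18 SE, adjusted p = 0.0156). CRABP2 read 176, 161 and 164 against 222, 213 and 273 TPM (0.49 ± 0.14, adjusted p = 0.0236). EFNA3 (0.47 ± 0.16, adjusted p = 0.0426) and LBH (0.35 ± 0.12, adjusted p = 0.0454) passed narrowly, and the groups did not overlap for any of the 4 (15.4% of all genes lay higher without overlap). TSC22D3 (-0.12), FSCN1 (0.21), PROCR (0.10) and USH1C (-0.19) did not pass.

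The 4 calls depended on single libraries. With either of 2 libraries left out they all ended: without shScramble replicate 2 or shMCART1 replicate 3 limma called 0 of the 8 (4 and 3 at an unadjusted p under 0.05). PLPPR3 alone was left when shScramble replicate 3 was dropped, CRABP2 and PLPPR3 when shScramble replicate 1 or shMCART1 replicate 1 was, and all but LBH when shMCART1 replicate 2 was. Fitted on the 2 groups alone, limma also called 0 (4 at an unadjusted p under 0.05). With GC trends removed PLPPR3 alone was called (0.50, adjusted p = 0.0245). The signs of the 4 were kept in every one of these fits.

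Whether the knockdown difference itself changed with MPP+ was tested over all 24 libraries. FSCN1 and PROCR passed, with a larger rise under MPP+ (0.56 ± 0.15 SE, adjusted p = 0.0342, and 0.57 ± 0.12, adjusted p = 0.0131), and 2.02% of 13571 genes were called in that direction. FSCN1 had changed by 0.21 without and 0.77 with MPP+, PROCR by 0.10 and 0.66. Under median-of-ratios scaling limma called 0 of the 8 (3 at an unadjusted p under 0.05). The call of FSCN1 also ended when any of 7 libraries was left out (shScramble replicates 1 and 3, shMCART1 replicate 1, and with MPP+ shScramble replicates 2 and 3 and shMCART1 replicates 1 and 2), with a highest adjusted p of 0.0911, while PROCR stayed called (highest adjusted p = 0.0463). The other 6 genes had adjusted p between 0.124 and 0.85.

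Levels with and without MPP+ came from separately made tables and were only set side by side. TSC22D3 was higher with MPP+ in each of the 4 kinds of cell, at 3.18 times the untreated mean in shScramble, 2.72 in shMCART1, 6.55 in oeNC and 2.78 in oeMCART1. LBH was higher in 3 of them (1.60, 1.71 and 3.55 times) and overlapped in oeMCART1 (0.859 times). FSCN1 was lower in all 4, at 0.334, 0.500, 0.611 and 0.259 times. CRABP2, PLPPR3, PROCR and EFNA3 were higher on average with MPP+ in oeNC (1.27 to 1.47 times; EFNA3 overlapped) and lower in oeMCART1 (0.460 to 0.528 times) and in shScramble (0.668 to 0.838 times). In shMCART1 CRABP2 (0.814), PLPPR3 (0.641) and EFNA3 (0.744) were lower with MPP+, and PROCR was higher (a mean of 49.5 against 39.5 TPM), none with overlap. USH1C stood at 1.89 times its untreated mean in oeNC and 0.551 times in oeMCART1, and overlapped in shScramble (1.16 times) and shMCART1 (1.05 times).

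The longest transcripts of the 8 genes had 52.4% (PROCR) to 71.3% GC (PLPPR3), all above the median of 48.9% over the genes tested in treated libraries. Differences of all genes followed transcript GC content, with a Spearman correlation across genes, which are not independent replicates, of -0.591 for treated overexpression, -0.795 for untreated overexpression, 0.464 for treated and 0.767 for untreated knockdown. For oeNC against shScramble it was 0.597 with MPP+ and 0.53 without, so the trend was not confined to the MCART1 comparisons. With each library's GC trend removed, the treated overexpression differences of the 8 lay between -2.99 (LBH) and -1.32 (PLPPR3). Those of treated knockdown were 0.53 for PLPPR3, 0.63 for FSCN1, 0.64 for CRABP2, 0.68 for PROCR, 0.44 for EFNA3, 0.46 for LBH and -0.33 for TSC22D3.

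**Figure D3:**
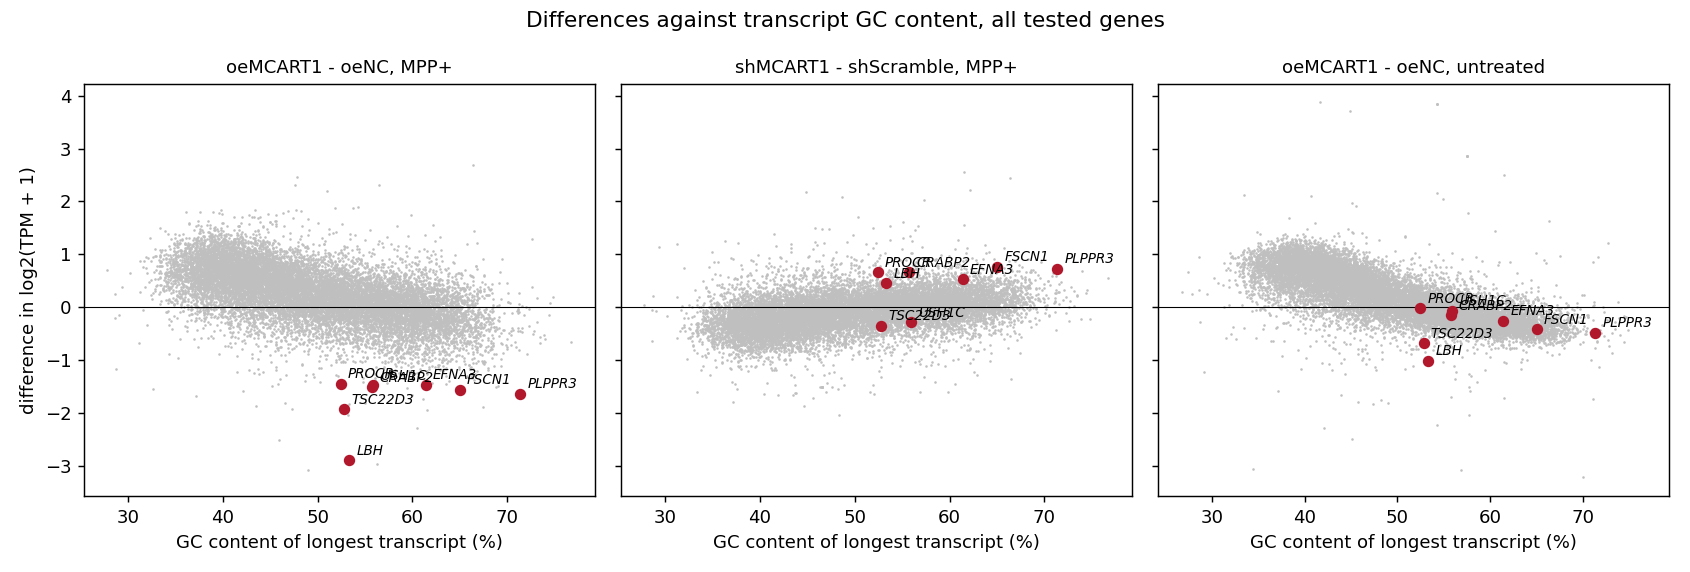
Difference in log2(TPM + 1) (y axis) against GC content of the longest transcript (x axis) for all tested genes with a GC value (grey; SLC25A51 is not drawn) and the 8 genes (red). In treated overexpression, the comparison that chose them, the 8 lie below the band of all genes at their GC content. In untreated overexpression, which did not choose them, all but LBH and TSC22D3 lie within or near the band.

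Other genes of the same pathways were counted in treated overexpression, leaving out the 8 and beside a median of 0.26 over all genes. Counts under median-of-ratios scaling are given after them, since it shifts every gene downward. Rises and falls in these counts are limma calls at an adjusted p under 0.05. Of all 14895 tested genes 46.7% were called higher and 14.2% lower (6949 and 2118 genes), or 4066 and 4237 genes under that scaling. Of 17 measured retinoic acid genes 2 rose and 5 fell (median -0.20), or 2 and 13. The level of RARG, a retinoic acid receptor, went from 16.6 ± 1.23 to 8.40 ± 0.597 TPM (-0.90 ± 0.07 SE, adjusted p = 1.99e-06), while FABP5, which carries retinoic acid to another receptor, rose (0.67), as did the retinol dehydrogenase RDH11 (0.55). With treated shScramble as the control RARG (-0.63) and FABP5 (0.27) also passed, and RDH11 did not (0.03, limma adjusted p = 0.812). Under treated knockdown RARG rose (0.45, adjusted p = 0.000976), and FABP5 (-0.19) and RDH11 (-0.25) fell, both short of the threshold under median-of-ratios scaling. Of 17 glucocorticoid receptor genes and targets 4 rose and 8 fell (median -0.30), or 4 and 10. DUSP1, a MAP kinase phosphatase (-1.28), the clock gene PER1 (-1.13) and the mTOR inhibitor DDIT4 (-0.82) were lower. The oeNC libraries spread widely for DUSP1 (49.0 ± 20.7 TPM, SD) and PER1 (20.8 ± 6.06 TPM). With treated shScramble as the control DDIT4 also passed (-0.63), and DUSP1 (-0.34) and PER1 (-0.44) did not (limma adjusted p = 0.323 and 0.14). DUSP1 rose under treated knockdown (1.61), where TSC22D3 fell.

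Of 19 ephrins and Eph receptors 4 rose and 6 fell with treated overexpression (median -0.17), or 2 and 9. EFNA4, a ligand like EFNA3, stood at 9.52 ± 0.490 TPM in oeNC and 4.02 ± 0.606 TPM in oeMCART1 (-1.07 ± 0.10 SE, adjusted p = 5.35e-06), and the receptors EPHA2 (-0.94) and EPHA8 (-0.89) fell too. With treated shScramble as the control EFNA4 (-0.57) and EPHA8 (-0.34) also passed, and EPHA2 did not (-0.22, limma adjusted p = 0.0914). Under treated knockdown, where 10.8% of all genes were called higher and 22.2% lower, 8 of the 19 rose and 1 fell, or 10 and 0 after median-of-ratios scaling, with EFNA4 (0.43), EPHA2 (0.59) and EPHA8 (0.31) higher. Of 12 other Wnt targets 2 rose and 6 fell with treated overexpression (median -0.37), or 1 and 9, among them the Wnt pathway inhibitors NKD2 (-1.01) and ZNRF3 (-0.68) and the transcription factor TCF7L1 (-0.87). ZNRF3 (0.61) and TCF7L1 (0.56) rose under treated knockdown, and NKD2 did not pass (0.21, adjusted p = 0.0858).

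The actin list depended on the scaling. Of its 17 other measured genes 8 rose and 2 fell with treated overexpression (median 0.14), against 4 and 6 under median-of-ratios scaling (median -0.13). Its lowest other gene, BAIAP2, was at -0.34, beside -1.56 for FSCN1, which was chosen on this difference. The actin bundler PLS3 stood higher under either scaling, at 57.9 ± 7.27 TPM in oeNC and 110 ± 11.9 TPM in oeMCART1 (0.92 ± 0.09 SE, adjusted p = 9.01e-06), as did the formin DIAPH3 (1.14) and the GTPase CDC42 (0.59). With treated shScramble as the control, none of these passed (PLS3 0.19, DIAPH3 0.20, CDC42 0.15, limma adjusted p = 0.169, 0.281 and 0.123). PLS3 fell under treated knockdown (-0.44, adjusted p = 0.00456).

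Of 7 lipid phosphatase relatives of PLPPR3, PLPP5 and PLPP6 rose (both 0.70) and PLPP1 (-0.41) and PLPPR2 (-0.34) fell. With treated shScramble as the control PLPP5 also passed (0.36), and PLPP1 (-0.20) and PLPPR2 (-0.27) did not (limma adjusted p = 0.1 and 0.0904). Of 5 genes of the protein C and thrombin receptor system F2RL1, a protease-activated receptor, rose (0.34), but not under median-of-ratios scaling (0.06, adjusted p = 0.526), and the other 4 did not pass. Of 7 genes of the Usher and harmonin complexes 4 fell (median -0.41), or 5 under that scaling. These were the scaffolds PDZD7 (-1.44), USH1G (-0.45) and WHRN (-0.41) and the cadherin CDH23 (-0.53), so that PDZD7 lay next to USH1C itself (-1.47). WHRN, or whirlin, was higher under treated knockdown (0.41). BAIAP2, PLPP6, PDZD7, USH1G and CDH23 were named after their values were seen. Of these, PLPP6, PDZD7, USH1G and CDH23 stayed under a mean of 5 TPM in both groups.

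**Figure D4:**
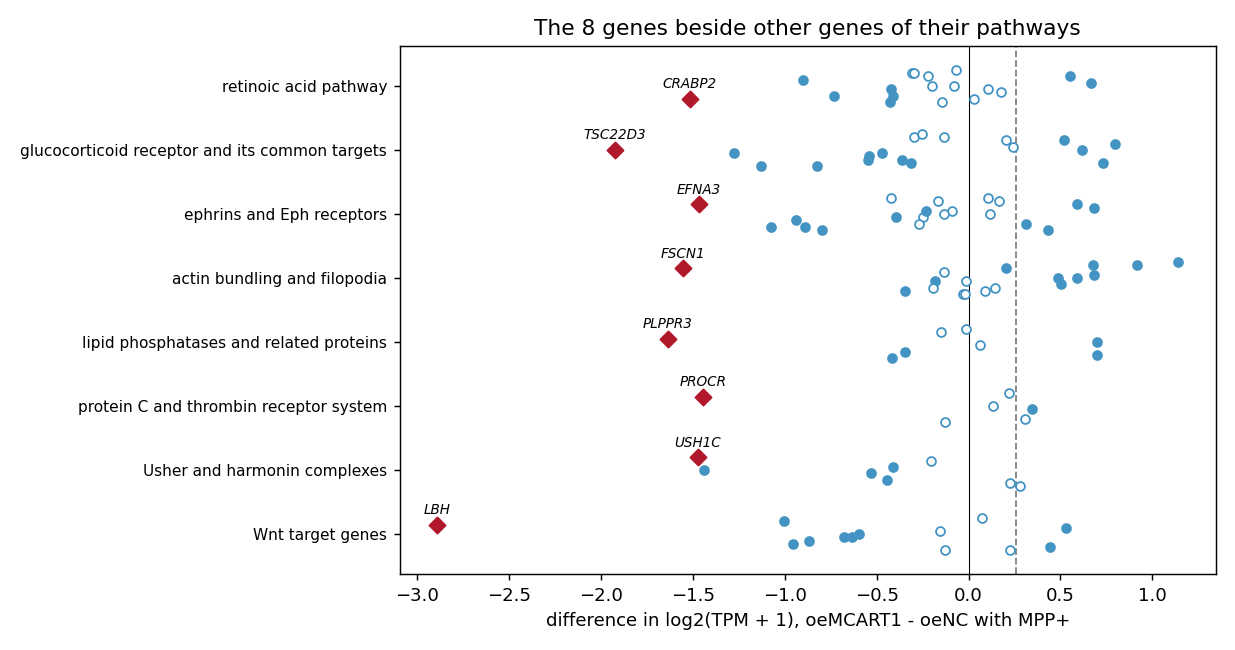
Difference in log2(TPM + 1) between treated oeMCART1 and oeNC (x axis) for the measured genes of 8 pathway lists (rows); red diamonds are the 8 genes, filled blue circles other genes called by limma, open circles those not called, and the dashed line the median of all genes, 0.26. Each of the 8 lies left of the other measured genes of its list, closest for USH1C (-1.47 against -1.44 for PDZD7). The 8 were chosen on this difference, so nothing is read from their place in the lists. The actin genes lie mostly right of 0, but not under median-of-ratios scaling (median -0.13).

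The genes most like each of the 8 over the 12 treated libraries were sought among 8815 named genes with a mean of at least 5 TPM. By Pearson correlation of log2(TPM + 1), which follows mostly the 4 group means, VAT1 was nearest to CRABP2 (0.995), ANXA6 to FSCN1 (0.995) and to EFNA3 (0.989), PPFIA3 to PLPPR3 (0.995) and TRIP10 to PROCR (0.993). RPL3 was nearest to LBH (0.989), CPT1A to TSC22D3 (0.976) and DIRAS1 to USH1C (0.960). TRIP10 averaged 38.3 TPM in shScramble, 57.2 in shMCART1, 54.1 in oeNC and 20.7 TPM in oeMCART1, the same order of groups as PROCR. ANXA6 ranged less widely, from 60.6 TPM in oeMCART1 to 110 TPM in shMCART1.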

How the data were processed

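Oligo-dT-selected RNA of cells labelled SH-SY5Y was sequenced as strand-specific libraries, per the labels' protocols, and the 24 libraries were grouped by their titles into 8 groups of 3. The deposited values are TPM made by the authors, in 1 table of 63266 entries (untreated) and 1 of 36783 (MPP+), with 31524 identifiers in both. Entries with no gene identifier (25 and 42) were left out. GRCm38, mm10 and GRCh38 are named in the submitters' processing notes without a role. The aligner, counter and annotation are not given in the sources used. Depth is unknown, since TPM do not keep it. Symbols, locations and GC content of longest transcripts came from the reference tables and GENCODE 29.

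Per table, genes reaching 1 TPM in 3 or more libraries were fitted with limma 3.58.1 in R 4.3.3 on log2(TPM + 1), using every group of that table and a trended variance prior. Calls are at a Benjamini-Hochberg adjusted p under 0.05 over all genes. In simulated data the fit recovered 76% (untreated knockdown, 14703 genes) to 92% (treated overexpression, 14895 genes) of 2-fold changes. Of 1.5-fold changes it recovered 24% (untreated oeMCART1 against shScramble, 14703 genes) to 80% (treated knockdown, 14895 genes), with 34% for untreated knockdown and 52% for untreated overexpression (14703 genes each). The gene numbers given are all genes of each simulated fit. Each size of change was put into only a small sample of them, drawn from genes with a mean log2(TPM + 1) over 1. The simulated noise was normal and independent between genes, with few genes changed and no GC trend. The real comparisons differ in this, so recovery in them may differ too. The 8 genes, the gene and marker lists and the tests were chosen with earlier results of these data known. Named genes are the 8, SLC25A51, in each list the 3 most changed called genes with a mean of 5 TPM in either group (for treated overexpression), and the gene most like each of the 8; PIM1, CDA, CCN1, MMP24OS and the markers were named after their values were seen. Some markers of the lists are not reported here by name. Deviations of same-numbered libraries correlated between -0.276 and 0.211, so numbers were not taken as pairs. The alternatives were another pseudocount (0.1), dropping the filter or raising it to 5 TPM, median-of-ratios and quantile scaling, omission of mitochondrial DNA genes, a replicate block, fits on the 2 compared groups, removal of GC trends (spline with 5 degrees of freedom) and omission of each library. Tables and plots were made with Python 3.11.15, pandas 2.3.3, numpy 2.4.6, scipy 1.17.1 and matplotlib 3.10.9.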

Additional observations from a re-analysis of the deposited data

Results flagged for a closer look

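The knockdown change of FSCN1 was larger with MPP+ than without it by 0.56 on the log2 scale (SE 0.15, limma adjusted p = 0.0342), and that of PROCR by 0.57 (SE 0.12, adjusted p = 0.0131), in a test of the difference itself over all 24 libraries. FSCN1 was higher in 3 of 3 shMCART1 libraries than in any shScramble library with MPP+, and overlapped without it, and the same held for PROCR. Both calls ended under median-of-ratios scaling, and that of FSCN1 ended without any of 7 single libraries.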

How the results depend on the processing

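The 7 treated knockdown calls held in all alternatives run. Of the 8 genes, 4 were called in untreated overexpression, but 2 with GC trends removed (2 also with the replicate block) and 2 to 5 with a library left out. For untreated knockdown 4 became 1 without the filter, 1 with GC trends removed (1 with the block), 0 on the 2 groups alone and 0 to 3 with a library left out. Untreated controls gave 1 call, 3 with the replicate block (CRABP2 and FSCN1 added) and 2 with GC trends removed (2 with the block). For untreated oeMCART1 against shScramble 6 became 3 without the filter, 3 with median-of-ratios scaling, 3 with GC trends removed (3 with the block) and 2 to 5 with a library left out. The knockdown difference gave 2, but 1 without the filter, 0 with median-of-ratios scaling and 1 to 2 with a library left out. The cause of these changes was not tested. Leaving out a library cannot separate the lower number of libraries from the loss of that library.

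Over all genes, untreated overexpression gave 7082 calls, 2580 with GC trends removed, 2997 with the block as well, and 3989 to 7689 with a library left out. Untreated knockdown gave 5035, 1272 without the filter, 1501 with GC trends removed, 2198 with the block as well, 0 on the 2 groups alone (limma; 5799 at an unadjusted p under 0.05) and 2 to 7236 with a library left out. Untreated controls gave 189, 60 without the filter, 49 without mitochondrial DNA genes, 1936 with the replicate block, 1067 with GC trends removed, 1344 with both, 45 on the 2 groups alone and 6 to 2227 with a library left out. Untreated oeMCART1 against shScramble gave 1238, 486 without the filter, 1884 with quantile scaling, 2469 with the replicate block, 618 with GC trends removed, 4281 on the 2 groups alone and 18 to 2335 with a library left out. The knockdown difference gave 610, 1108 with the replicate block, 1092 with GC trends removed, 1366 with both and 257 to 2554 with a library left out.

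Signs turned for values that did not pass. With GC trends removed, with or without the block, untreated overexpression was 0.03 for EFNA3 and 0.06 for USH1C, untreated knockdown -0.09 for FSCN1 and the knockdown difference 0.03 for PLPPR3. Median-of-ratios scaling gave 0.08 for TSC22D3 in untreated knockdown and -0.03 for EFNA3 in the knockdown difference. Quantile scaling gave 0.06 for USH1C in untreated knockdown, 0.04 for PLPPR3 between untreated controls, and -0.03 for LBH and -0.00 for EFNA3 in the knockdown difference. With a library left out, PROCR ranged from -0.08 to 0.03 and USH1C from -0.22 to 0.05 in untreated overexpression, LBH from -0.03 to 0.17 between untreated controls, and in the knockdown difference PLPPR3 from -0.18 to 0.07, EFNA3 from -0.02 to 0.16 and USH1C from -0.24 to 0.04.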
